A study of Rattus norvegicus with 9 samples.

Results

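The genes described here are 10 core components of the Notch pathway in the rat superior mesenteric artery (SMA), the vessel that supplies most of the small intestine. They are the receptors Notch1, Notch2, Notch3 and Notch4, the ligands Dll4 and Jag1, and the target genes Hes1, Hey1, Hey2 and Heyl. They were found in the count table by gene symbol. All 10 were found among the 37203 symbols of the count table, and all 10 were among the 15482 genes with enough counts to be tested. The arteries came from Sprague-Dawley rats aged 8 weeks, with no genetic change. The 9 libraries fell into 3 groups of 3, namely normal arteries, arteries taken after 1 h of ischemia (ischemia 1 h) and arteries taken after 4 h of ischemia (ischemia 4 h). Ischemia was brought about by bleeding anaesthetised rats from a femoral artery, so the whole animal was affected and not the artery alone.

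Notch receptors are single-pass membrane proteins that are activated by ligands of the Delta-like and Jagged families on a neighbouring cell. Ligand binding allows the protease gamma-secretase to release the intracellular part of the receptor, which moves to the nucleus, binds the DNA-binding protein RBPJ and switches on genes of the Hes and Hey families, themselves transcriptional repressors. In arteries, Dll4 and Notch4 are known mainly from the endothelium, Notch3 from smooth muscle, and Jag1 from both layers, where it carries a signal from the endothelium to the muscle.

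Total counts ran from 13114273 to 15504240 per library, so that a level of 1 CPM (reads per 1e6, scaled here by trimmed mean of M-values, TMM) stood for 12.1 to 17.9 reads. Transcript lengths were not used here, so levels were not compared between genes. The libraries differed in their content of cell type markers within each group, and for sympathetic neuron markers also between normal and ischemia 1 h. The summed level of 10 smooth muscle markers, all tested, ran from 11492 to 51333 CPM in normal, from 13192 to 47559 CPM in ischemia 1 h and from 25018 to 72337 CPM in ischemia 4 h arteries. That of 15 endothelial markers, of which 14 were tested and 1 was at 0 in a single normal library, ran from 1114 to 2092, from 993 to 1588 and from 963 to 1333 CPM. For 15 sympathetic neuron markers the sums were 48.1 to 609, 903 to 8257 and 53.6 to 8032 CPM, and 4 of these markers, Dbh among them, were at 0 in normal replicate 2. Every ischemia 1 h library thus lay above every normal library in this sum. The part of nerve content in the differences between ischemia 1 h and normal was not tested. For 10 Schwann cell markers they were 260 to 4492, 1238 to 2512 and 533 to 2268 CPM. Normal replicate 1 stood apart, with the lowest smooth muscle sum and the highest endothelial and Schwann cell sums of the 9 libraries. In bulk tissue, fewer cells of a type and less RNA per cell cannot be told apart.

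Promoter sequence is shown for 4 genes. Hes1 and Hey2 are the classical targets in which the core of the RBPJ site (TGGGAA, read on either strand as TGGGAA or TTCCCA) was found, and Heyl and Jag1 are the members with the lowest p values below. Each run is the 250 bases before the annotated transcript start, 5' to 3' on the gene's strand, from RefSeq on the GRCr8 build, with the RBPJ core in capitals. Of the 10 members, 8 were matched in the promoter table; Dll4 and Hey1 were not.
Hes1: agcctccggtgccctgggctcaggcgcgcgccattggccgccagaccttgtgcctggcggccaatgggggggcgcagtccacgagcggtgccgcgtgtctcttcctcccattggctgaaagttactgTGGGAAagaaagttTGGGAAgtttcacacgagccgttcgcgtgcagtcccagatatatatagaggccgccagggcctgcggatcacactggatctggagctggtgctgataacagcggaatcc
Hey2: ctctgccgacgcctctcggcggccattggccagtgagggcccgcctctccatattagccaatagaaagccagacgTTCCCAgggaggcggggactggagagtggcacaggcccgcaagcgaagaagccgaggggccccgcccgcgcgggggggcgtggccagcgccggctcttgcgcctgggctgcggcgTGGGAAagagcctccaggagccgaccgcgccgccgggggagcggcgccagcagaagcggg
Heyl: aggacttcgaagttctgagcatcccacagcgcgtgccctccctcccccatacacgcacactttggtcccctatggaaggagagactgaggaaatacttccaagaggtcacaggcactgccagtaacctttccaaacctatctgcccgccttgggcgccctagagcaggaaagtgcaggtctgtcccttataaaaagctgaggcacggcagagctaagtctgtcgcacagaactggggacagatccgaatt
Jag1: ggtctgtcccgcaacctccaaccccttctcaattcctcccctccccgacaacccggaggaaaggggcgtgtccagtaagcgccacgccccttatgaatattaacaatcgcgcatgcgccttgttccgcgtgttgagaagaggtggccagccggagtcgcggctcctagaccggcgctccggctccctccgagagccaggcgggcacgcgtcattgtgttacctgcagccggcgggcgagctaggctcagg
The Hes1 run is chr11:84213046-84213295 on the minus strand, with its 2 cores in the printed orientation at 123 to 118 and 109 to 104 bases before the start. The Hey2 run is chr1:28640850-28641099 on the plus strand, with 1 core in the printed orientation at 60 to 55 bases and 1 on the opposite strand at 175 to 170 bases. The Heyl run is chr5:140793021-140793270 on the plus strand and the Jag1 run is chr3:144894884-144895133 on the minus strand, and neither holds these letters. The core is short and common. At least 1 was found in 22.1% of the 33469 promoters of this length and at least 2 in 2.71%, so that a match describes the letters only. Besides Hes1 and Hey2, the run of Notch4 also held 2 cores, and those of Notch1, Notch2 and Notch3 held 0.

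The first question was whether the genes differed between normal and ischemic arteries. The ligand Jag1 was lower in all 6 ischemic libraries than in any normal library, by -1.22 at ischemia 1 h and -1.43 at ischemia 4 h on the log2 scale (SE 0.27 each). The target Heyl was higher in all 3 libraries at ischemia 4 h, by 1.79 (SE 0.53), and the receptors overlapped between normal and ischemic arteries. No member passed the threshold (adjusted p under 0.05 and a fold change over 1.5) in any comparison, where 0.0581% of all genes tested passed at ischemia 1 h against normal, 0.0904% at ischemia 4 h against normal and 0% at ischemia 4 h against ischemia 1 h. At ischemia 1 h against normal, 1 of 10 members stood at an unadjusted p under 0.05, against 16.7% of all genes, and for that gene, Jag1, every ischemic library lay below every normal one. Groups that did not overlap, with the ischemic libraries lower, were found for 13.5% of all genes, and with the ischemic libraries higher for 0 members and 12.8% of all genes, 26.3% together. At ischemia 4 h against normal, 4 of 10 stood at an unadjusted p under 0.05, against 12.4% of all genes. Heyl was the higher one, and Jag1, Dll4 and Hey1 were lower. The groups did not overlap for 3 members, against 18.7% of all genes, with 1 higher (7.93% of all genes) and 2 lower (10.8%). At ischemia 4 h against ischemia 1 h, 1 of 10 members, Heyl, stood at an unadjusted p under 0.05 and was higher, against 2.58% of all genes, of which 1.33% were higher and 1.25% lower. The groups did not overlap for 3 members, against 6.24% of all genes, with Hey2 and Heyl higher (3.2% of all genes) and Dll4 lower (3.04%). These counts moved when 1 library was left out. At ischemia 4 h against normal, the count ran from 2 to 5 over the 9 such fits (9.61% to 12.6% of all genes). It was 2 in the fits without normal replicate 1, ischemia 1 h replicates 1 or 2 or ischemia 4 h replicates 1 or 2, where 10.1% to 12.6% of all genes stood there. Jag1 and Heyl were counted in all 9 fits. At ischemia 1 h the count was 2 without normal replicate 2 (9.56% of all genes) or ischemia 1 h replicate 2 (19.7%). Between the ischemic groups it was 0 without normal replicate 2, ischemia 1 h replicates 1 or 3 or ischemia 4 h replicates 1 or 2 (0.806% to 3.1% of all genes), and 2 without normal replicate 1 (3.02%) or ischemia 4 h replicate 3 (20.7%).

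An F-test over all 3 groups called 0 of 10 members (0.0388% of all genes), with 2 of 10 at an unadjusted p under 0.05 (11.4% of all genes), Jag1 and Heyl. Over the 9 fits that each left out 1 library that count ran from 1 to 3 (7.2% to 23.9% of all genes), and it was 1 without ischemia 4 h replicate 1 (10.1% of all genes). DESeq2 called far more genes of the same table. In it 1 member (Jag1) passed at ischemia 1 h, where 4.53% of all genes did, 2 (Jag1 and Heyl) at ischemia 4 h, where 3.94% did, 1 (Jag1) over any group, where 4.32% did, and 0 between the ischemic groups, where 0% did. The median log2 fold change of the members in the 3 pairwise comparisons was -0.32, -0.07 and 0.09, that of all genes -0.01, 0.03 and -0.04. Both comparisons with normal arteries shared the same 3 normal libraries.

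**Figure D1:**
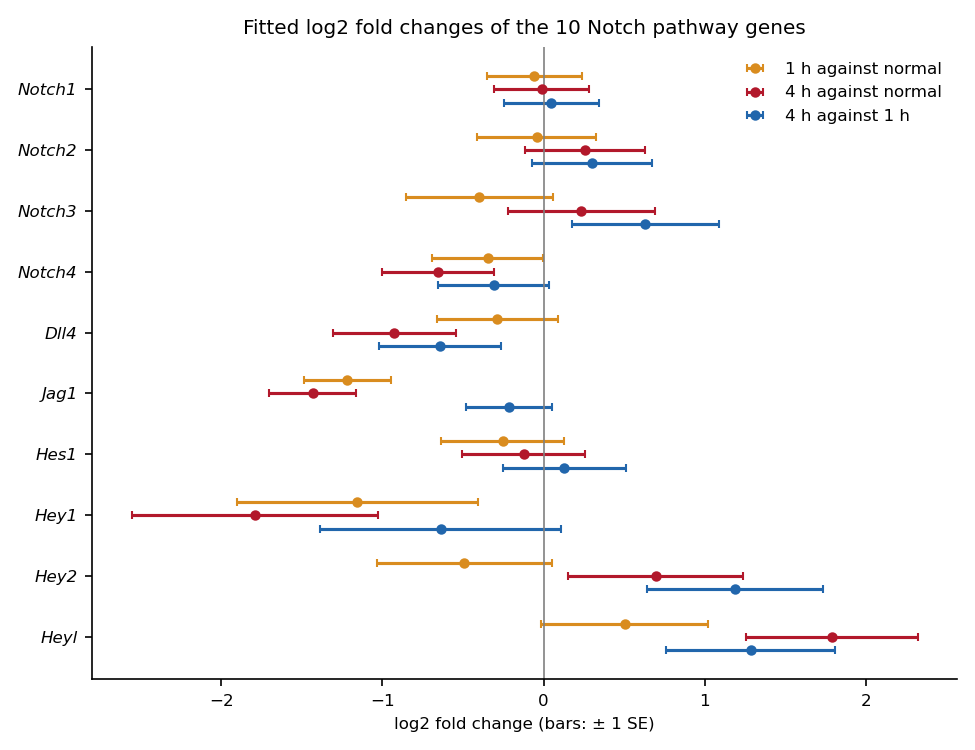
Log2 fold change of each of the 10 Notch genes with its standard error (horizontal bars), at ischemia 1 h and at ischemia 4 h against normal and at ischemia 4 h against ischemia 1 h, 3 libraries a group. Jag1 lies to the left of 0 in both comparisons with normal arteries and Heyl to the right of 0 at ischemia 4 h, by 1.79, and no member passed the adjusted threshold.

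Of the ligands, Jag1 was the clearest. Its level was 52.3, 96.1 and 89.4 CPM in normal arteries, 32.6, 43.2 and 26.4 CPM at ischemia 1 h and 28.4, 30.6 and 29.0 CPM at ischemia 4 h. Every ischemic library lay below every normal library, and the 3 libraries at ischemia 4 h lay within a narrow range. The mean of 79.3 ± 23.6 CPM (SD, n = 3) in normal arteries stood against 34.1 ± 8.52 CPM at ischemia 1 h and 29.3 ± 1.12 CPM at ischemia 4 h. The log2 fold change was -1.22 at ischemia 1 h (SE 0.27, edgeR unadjusted p = 0.00176, adjusted p = 0.180) and -1.43 at ischemia 4 h (SE 0.27, edgeR unadjusted p = 0.000647, adjusted p = 0.0871). Ischemia 4 h differed from ischemia 1 h by -0.22 (SE 0.27), less than its error. The same counts in DESeq2 gave adjusted p = 0.00725 at ischemia 1 h and adjusted p = 0.000596 at ischemia 4 h, past the threshold at both times. The direction did not turn on any 1 library. Leaving out each of the 9 in turn gave -1.44 to -1.08 at ischemia 1 h and -1.66 to -1.27 at ischemia 4 h, with an unadjusted p under 0.05 in all 9 fits at either time and with 0 of them past the adjusted threshold.

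Dll4, the ligand of arterial endothelium, was 43.3, 20.5 and 19.6 CPM in normal arteries, 19.5, 22.1 and 26.9 CPM at ischemia 1 h and 9.10, 17.2 and 17.6 CPM at ischemia 4 h. At ischemia 4 h all 3 libraries lay below all 3 normal libraries, with 17.6 against 19.6 CPM between the nearest, while ischemia 1 h and normal overlapped. Dll4 had a log2 fold change of -0.93 at ischemia 4 h (SE 0.38, edgeR adjusted p = 0.371) and -0.29 at ischemia 1 h (SE 0.38, edgeR adjusted p = 0.696). Normal replicate 1, the library with the most endothelial markers, weighed heavily. Without it the values were -0.46 and 0.18. With the endothelial marker score as a covariate they were -0.45 and 0.02. In the RefSeq annotation Dll4 overlaps another coding gene, Dll4l1 (not analysed here), and whether reads were counted by strand is not given in the sources used here, so its counts may hold reads of both.

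**Figure D2:**
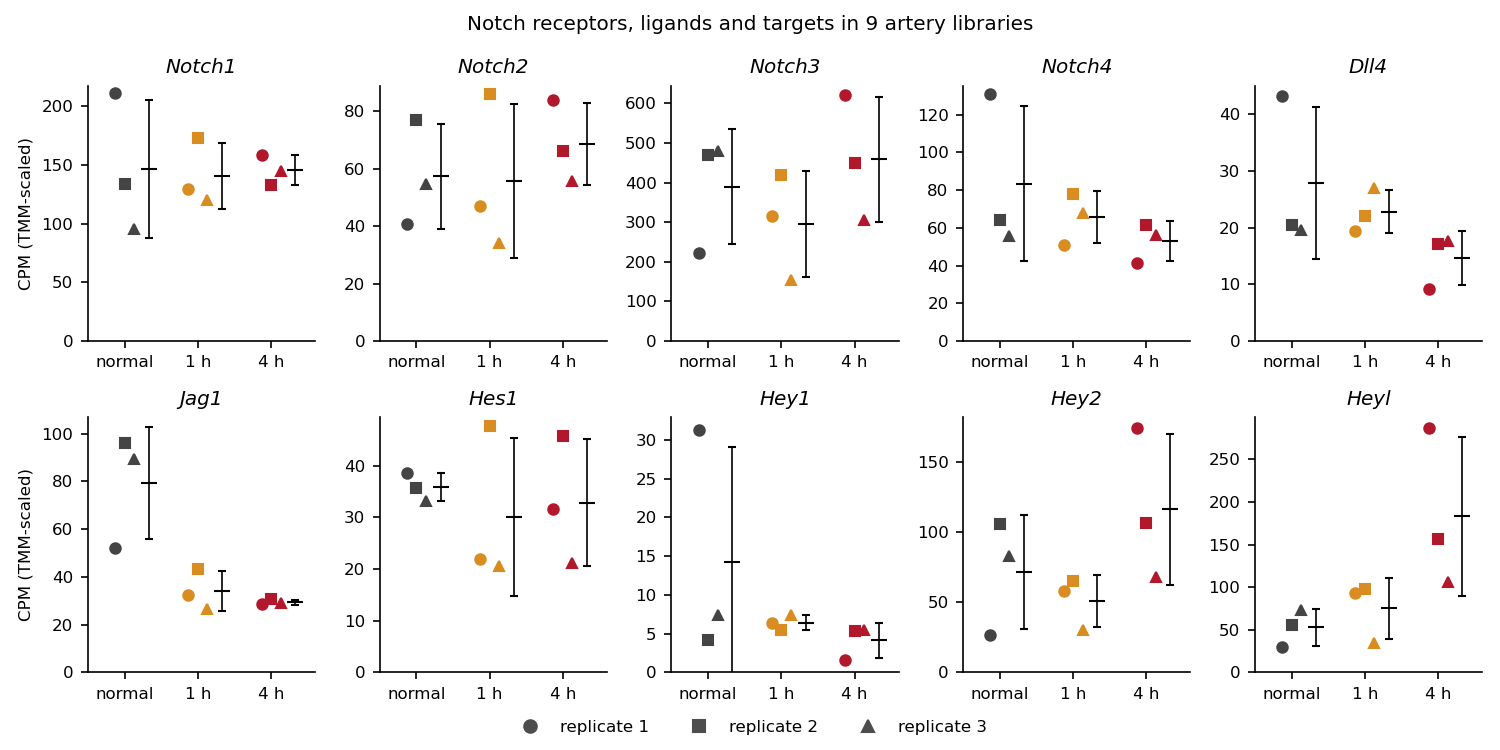
Level of each of the 10 Notch genes in CPM (linear axis from 0) in each library of the 3 groups, with a marker shape for each replicate number and the mean ± SD beside it. The Jag1 points of both ischemic groups sit at 43.2 CPM or less and those of normal arteries at 52.3 CPM or more, the Heyl points at ischemia 4 h sit at 106 CPM or more, and the Hey1 mean of normal arteries is set by 1 library, so that the lower end of its error bar runs below 0 and is cut at the axis.

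Among the receptors, no difference exceeded the spread between libraries by the adjusted test. Notch1, the receptor shared by many tissues, was 211, 133 and 95.1 CPM in normal arteries, 129, 173 and 120 CPM at ischemia 1 h and 159, 133 and 145 CPM at ischemia 4 h, with log2 fold changes of -0.06 and -0.01 (SE 0.30 each) against normal. Notch2, which is found in smooth muscle among other cells, was 40.6, 76.9 and 54.8 CPM, 47.1, 86.0 and 34.2 CPM, and 83.9, 66.1 and 55.8 CPM in the same order, with log2 fold changes of -0.04 and 0.26 (SE 0.37 each). Both overlapped between all 3 groups.

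Notch3, the main Notch receptor of arterial smooth muscle, was 221, 469 and 479 CPM in normal arteries, 316, 418 and 153 CPM at ischemia 1 h and 621, 449 and 306 CPM at ischemia 4 h. Its lowest libraries, normal replicate 1 and ischemia 1 h replicate 3, were also the libraries with the lowest smooth muscle scores, at 9.05 and 9.27 on a log2 CPM scale against 10.21 to 11.67 in the other 7. The log2 fold change against normal was -0.40 at ischemia 1 h (SE 0.46, edgeR adjusted p = 0.648) and 0.23 at ischemia 4 h (SE 0.46, edgeR adjusted p = 0.861). Without ischemia 1 h replicate 2 the first was -0.73 and without ischemia 1 h replicate 3 it was -0.11.

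Notch4, a receptor of endothelial cells, was 131, 64.0 and 55.7 CPM in normal arteries, 50.6, 78.2 and 68.1 CPM at ischemia 1 h and 41.2, 61.6 and 56.2 CPM at ischemia 4 h. Only normal replicate 1 stood clear of the rest. Its log2 fold change against normal was -0.35 at ischemia 1 h (SE 0.35, edgeR adjusted p = 0.595) and -0.66 at ischemia 4 h (SE 0.35, edgeR adjusted p = 0.481). Without normal replicate 1 these became 0.13 and -0.18.

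Of the target genes, Heyl had the lowest p. This repressor of the Hey family is known from arterial smooth muscle, and it was 30.2, 55.2 and 73.3 CPM in normal arteries, 93.4, 97.7 and 34.2 CPM at ischemia 1 h and 286, 157 and 106 CPM at ischemia 4 h. All 3 libraries at ischemia 4 h lay above every library of the other groups, while ischemia 1 h overlapped normal through its replicate 3. The mean at ischemia 4 h was 183 ± 93.0 CPM (SD, n = 3) against 52.9 ± 21.6 CPM in normal arteries, a ratio of 3.46. The log2 fold change was 1.79 at ischemia 4 h against normal (SE 0.53, edgeR unadjusted p = 0.0093, adjusted p = 0.228), 0.50 at ischemia 1 h against normal (SE 0.52, edgeR adjusted p = 0.607) and 1.29 at ischemia 4 h against ischemia 1 h (SE 0.52, edgeR adjusted p = 0.856). In DESeq2 the adjusted p at ischemia 4 h against normal was 0.0313, past the threshold. Leaving out each library in turn gave 1.28 to 2.10 at ischemia 4 h against normal, the lowest without ischemia 4 h replicate 1, which had the highest Heyl level and the highest smooth muscle score of the 9. The value at ischemia 1 h ran from 0.22 without normal replicate 1 to 0.82 without ischemia 1 h replicate 3, and that between the ischemic groups from 0.78 without ischemia 4 h replicate 1 to 1.56 without ischemia 4 h replicate 3. With the smooth muscle score as a covariate the value was 1.39 (SE 0.29, edgeR adjusted p = 0.0956). In RefSeq the span of a long noncoding RNA overlaps that of Heyl and, as for Dll4, the Heyl counts may hold reads of both. Whether exons overlap was not checked.

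Hey2, the Hey gene tied to arterial identity, was 26.9, 106 and 82.7 CPM in normal arteries, 57.8, 65.2 and 29.9 CPM at ischemia 1 h and 174, 106 and 67.9 CPM at ischemia 4 h. Every library at ischemia 4 h lay above every library at ischemia 1 h, but both overlapped normal. For Hey2 the log2 fold change was -0.49 at ischemia 1 h against normal (SE 0.54, edgeR adjusted p = 0.631), 0.70 at ischemia 4 h against normal (SE 0.54, edgeR adjusted p = 0.618) and 1.19 at ischemia 4 h against ischemia 1 h (SE 0.55, edgeR adjusted p = 0.856). Single libraries moved these values. The first ran from -0.89 without normal replicate 1 to -0.14 without normal replicate 2, the second from 0.25 without ischemia 4 h replicate 1 to 1.07 without normal replicate 2, and the third from 0.74 without ischemia 4 h replicate 1 to 1.46 without ischemia 4 h replicate 3.

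Hey1, a Hey gene of arterial endothelium among other cells, was 31.3, 4.16 and 7.46 CPM in normal arteries, 6.42, 5.41 and 7.43 CPM at ischemia 1 h and 1.57, 5.31 and 5.48 CPM at ischemia 4 h. Normal replicate 1, at 559 reads, stood alone, since the other 8 libraries held 19 to 121 reads. The log2 fold change of -1.79 at ischemia 4 h (SE 0.76, edgeR unadjusted p = 0.0456, adjusted p = 0.392) became -0.50 without that library, and that of -1.16 at ischemia 1 h (SE 0.75, edgeR adjusted p = 0.411) became 0.14. Hes1, the most widely used Notch target, showed no such library. It was 38.5, 35.8 and 33.1 CPM in normal arteries, 21.9, 47.7 and 20.5 CPM at ischemia 1 h and 31.7, 45.7 and 21.2 CPM at ischemia 4 h, with log2 fold changes of -0.25 and -0.12 (SE 0.38 each).

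The members' levels were then set beside the marker scores of the tissue's cell types, each the mean log2 CPM of its markers, over the 9 libraries. In all, 40 relations were computed, 10 genes with the endothelial, smooth muscle, sympathetic neuron and Schwann cell scores, with exact permutation p values adjusted over the 40. All 3 groups are pooled in them, the points share library depth and scaling, and the replicates of a group differ in cell content, so they describe how the genes moved among libraries and not an effect of ischemia. Notch4 followed the endothelial score (Pearson r = 0.96, exact permutation p = 0.0002, adjusted 0.0024, and Spearman rho = 0.88, exact permutation p adjusted 0.041), and without the 2 libraries farthest from the median score r was 0.83. Across all genes tested, 0.0323% had as high an r with that score. Notch3 followed the smooth muscle score (r = 0.96, exact permutation p adjusted 0.0024, rho = 0.93, exact permutation p adjusted 0.015, r = 0.98 without 2 libraries), as did Hey2 (r = 0.94, exact permutation p adjusted 0.0024, rho = 0.93, exact permutation p adjusted 0.015, r = 0.81 without 2 libraries), against 0.859% and 1.18% of all genes.

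Smooth muscle relations of 3 other members passed by Pearson's r and not by Spearman's rho. They were Notch2 (r = 0.89, exact permutation p adjusted 0.0166, rho = 0.68, exact permutation p adjusted 0.201, r = 0.74 without 2 libraries), Dll4 (r = -0.79, exact permutation p adjusted 0.0238, rho = -0.73, exact permutation p adjusted 0.192, r = -0.46 without 2 libraries) and Hey1 (r = -0.78, exact permutation p adjusted 0.0166, rho = -0.70, exact permutation p adjusted 0.192, r = -0.57 without 2 libraries). An r with the smooth muscle score at least as far from 0 on the same side was found for 3.17%, 4.77% and 5.49% of all genes. In total 6 of the 20 endothelial and smooth muscle relations passed by r and 3 by rho. The share of all genes that would pass was not computed. Of the 20 with the sympathetic neuron and Schwann cell scores, 0 passed by either, with r from -0.73 to 0.63. The -0.73 was that of Notch3 with the sympathetic neuron score (exact permutation p adjusted 0.103, rho = -0.80, exact permutation p adjusted 0.138, r = -0.61 without 2 libraries).

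For Jag1 neither the endothelial nor the smooth muscle relation passed. Its r was 0.25 with the endothelial score (exact permutation p adjusted 0.594) and 0.23 with the smooth muscle score (exact permutation p adjusted 0.621), with Spearman rho of 0.42 (exact permutation p adjusted 0.431) and 0.05 (exact permutation p adjusted 0.912). The r of Jag1 was farther from 0 with the sympathetic neuron score, at -0.40 (exact permutation p adjusted 0.397), and the Schwann cell score, at -0.47 (exact permutation p adjusted 0.341). For Dll4 the relation with the endothelial score rested on few libraries, with r = 0.85 (exact permutation p adjusted 0.0587), rho = 0.60 (exact permutation p adjusted 0.240) and r = 0.18 without normal replicate 1 and ischemia 4 h replicate 1. For Heyl and the smooth muscle score r was 0.78 (exact permutation p adjusted 0.0717), rho was 0.70 (exact permutation p adjusted 0.192), and r was 0.37 without the 2 farthest libraries.

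A score was also subtracted from the level on the log2 scale, which takes every gene to move 1 for 1 with its score. The part of cell content in the differences between groups was not tested by it. Heyl minus the smooth muscle score was -4.12, -5.40 and -5.02 in normal arteries, -3.73, -4.51 and -4.17 at ischemia 1 h and -3.51, -3.96 and -3.48 at ischemia 4 h, and the libraries at ischemia 4 h and normal did not overlap. Dll4 minus the endothelial score was -1.17, -1.52 and -1.08 in normal arteries. It was -1.20, -1.62 and -0.90 at ischemia 1 h and -1.87, -1.62 and -1.53 at ischemia 4 h. Ischemia 4 h and normal did not overlap, with a gap of little size, while ischemia 1 h overlapped normal. The share of all genes that separate after either subtraction was not computed. For Jag1 minus the smooth muscle score the 3 normal libraries stood at -3.33, -4.60 and -4.73 and the 6 ischemic libraries at -6.84 to -4.54, with ischemia 1 h replicate 3 inside the normal range. Against the endothelial score, normal replicates 2 and 3 stood at 0.70 and 1.10, above the 6 ischemic libraries at -0.93 to -0.24, and normal replicate 1 stood among these at -0.90. When a score was added to the fit, Jag1 had log2 fold changes of -1.23, -1.12 and -0.99 at ischemia 1 h with the endothelial, smooth muscle and nerve scores and -1.51, -1.55 and -1.39 at ischemia 4 h. With the smooth muscle score Jag1 at ischemia 4 h passed the threshold (edgeR adjusted p = 0.0215), as did 0.439% of all genes.

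**Figure D3:**
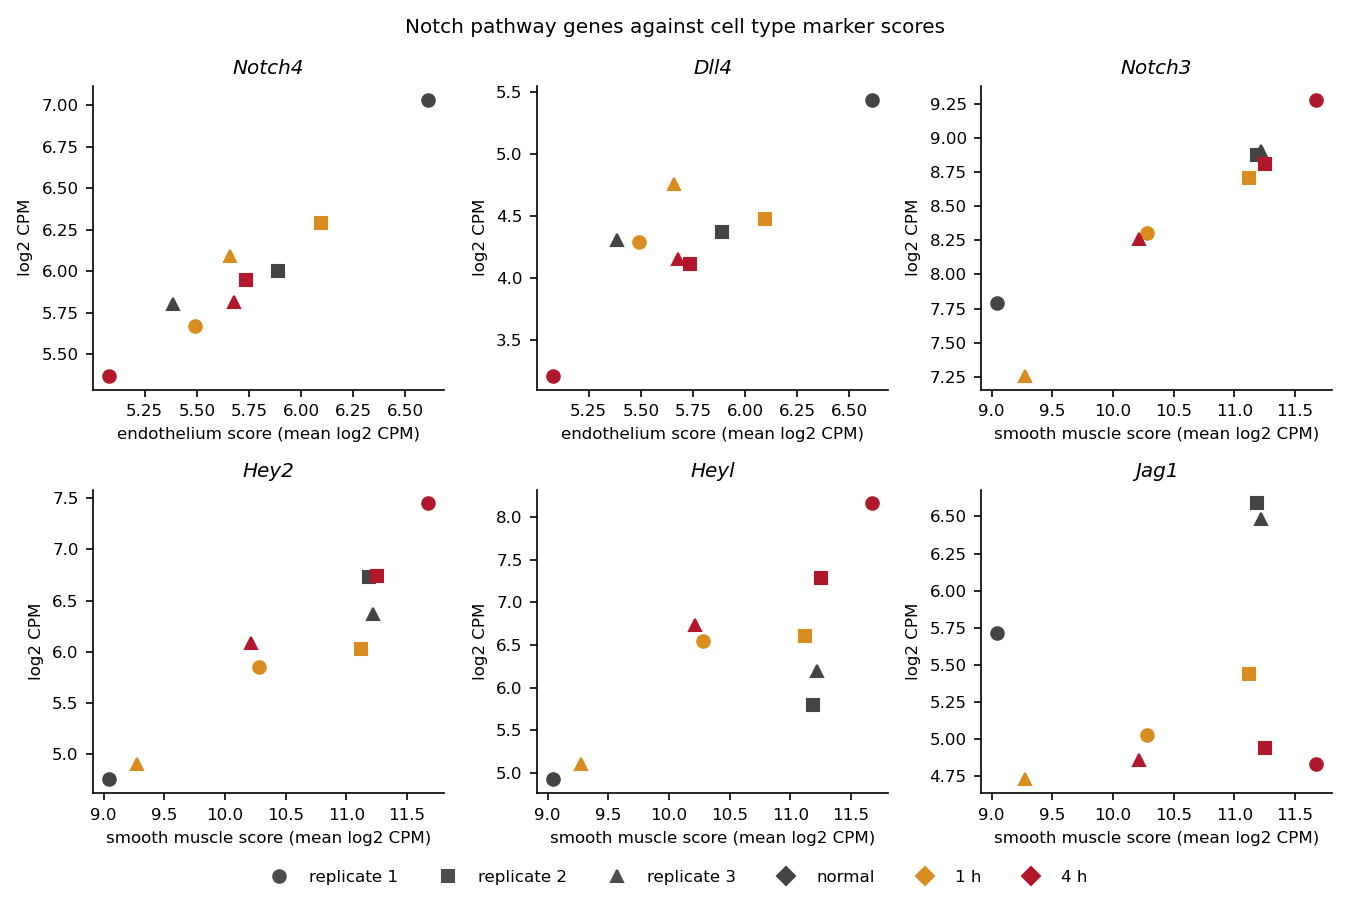
Log2 CPM of 6 Notch genes against a marker score (mean log2 CPM of the markers), 1 point a library, for Notch4 and Dll4 against the endothelial score and for Notch3, Hey2, Heyl and Jag1 against the smooth muscle score, with groups by colour. Notch4, Notch3 and Hey2 lie near a line across all groups. The Jag1 points of ischemic arteries all lie below those of normal arteries, but not every ischemic library has a normal library at a like score.

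For each member, the non-member genes with the most alike pattern were sought by Pearson r over the 9 libraries, among 10437 genes. Since 9 libraries were compared with so many genes, the highest r is high for any gene, and no p is given. Jag1 was most like Zfp275, Pcdh18 and Zfp503 (r = 1.00, 0.98 and 0.97), Dll4 most like Slco2b1, Lrmp and Rasa3 (r = 1.00, 0.98 and 0.98), and Notch4 most like Slc29a3, Eltd1 and Orai1 (r = 0.99, 0.98 and 0.97). Notch3 was most like Myom1, Col4a6 and Lgr6 (r = 0.99 each), Hey2 most like Dbndd2, Asb2 and Serpine2 (r = 0.98 each), and Heyl most like Adamts15, Herpud1 and Smad7 (r = 0.96 each). The other members' nearest genes were Paxip1 for Notch1 (r = 0.90), Zfp592 for Notch2 (r = 0.97), Phf2 for Hes1 (r = 0.97) and Gpam for Hey1 (r = 0.98). Among the members, Dll4 with Hey1 had r = 0.94, Notch3 with Hey2 r = 0.93, Dll4 with Notch4 r = 0.91, Hey2 with Heyl r = 0.85 and Dll4 with Heyl r = -0.92.

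A further 64 genes of the pathway were looked up, of which 63 were in the table and 60 were tested. They are the other ligands, the proteases that cut the receptor, the nuclear complex and its corepressors, the enzymes and adaptors of glycosylation, endocytosis and turnover, and other targets. In edgeR 0 of the 60 passed the adjusted threshold in any comparison, and in DESeq2 6 passed at ischemia 1 h (4.53% of all genes), 4 at ischemia 4 h (3.94% of all genes) and 0 between the ischemic groups (0%). At an unadjusted p under 0.05 in edgeR, 5 of 60 were higher and 5 lower at ischemia 1 h, where 7.98% of all genes were higher and 8.67% lower. At ischemia 4 h, 5 were higher and 4 lower, where 5.07% of all genes were higher and 7.35% lower, and between the ischemic groups 2 were higher at ischemia 4 h, where 1.33% of all genes were higher. At ischemia 1 h, and for lower genes at ischemia 4 h, the edgeR counts lie near the shares of all genes. The edgeR counts higher at ischemia 4 h against either group, and the DESeq2 counts against normal, lie above these shares by few genes. Whether the list differs from all genes was not tested. The genes named next were taken by lowest p within each direction.

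The 4 genes with the lowest p among those lower after ischemia were the same at both times, Lfng, Mfng, Egfl7 and Gja5. Lfng, a Fringe enzyme that adds sugar to the receptor and so alters which ligands it answers, was 42.6, 28.8 and 17.9 CPM in normal arteries, 14.7, 10.03 and 11.2 CPM at ischemia 1 h and 6.20, 12.2 and 10.5 CPM at ischemia 4 h. Its log2 fold change was -1.31 (SE 0.37, edgeR adjusted p = 0.224) at ischemia 1 h and -1.63 (SE 0.38, edgeR adjusted p = 0.151) at ischemia 4 h. Mfng, a second Fringe enzyme, was 29.5, 13.7 and 12.2 CPM, 6.89, 8.56 and 7.31 CPM, and 3.80, 10.9 and 6.60 CPM. In both genes every ischemic library lay below every normal library. Egfl7, a secreted protein of endothelium, was 142, 117 and 62.7 CPM in normal arteries and 36.0 to 56.5 CPM in the 6 ischemic libraries, with log2 fold changes of -1.11 (SE 0.33) and -1.22 (SE 0.33). Gja5, a gap junction protein of arterial endothelium, was 18.5, 41.0 and 22.9 CPM in normal arteries and 4.62 to 13.1 CPM in ischemic ones, with log2 fold changes of -1.71 and -1.54 (SE 0.46 each). None of the 4 overlapped between normal and ischemic arteries at either time. Of all genes, 13.5% were lower without overlap at ischemia 1 h and 10.8% at ischemia 4 h. Taking genes by lowest p favours such a separation, so it adds nothing to the p values. Both Egfl7 and Gja5 are endothelial genes, and the endothelial score ran from 5.38 to 6.61 in normal and from 5.08 to 6.09 in ischemic arteries. Its part in these values was not tested.

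Among those higher after ischemia, Nrarp and Tle3 were taken at both times, Myc at ischemia 1 h and Furin at ischemia 4 h. Nrarp, a target that restrains the pathway, was 18.9, 15.0 and 11.2 CPM in normal arteries, 23.2, 54.9 and 67.0 CPM at ischemia 1 h and 22.5, 36.6 and 64.2 CPM at ischemia 4 h, with log2 fold changes of 1.69 (SE 0.49, edgeR adjusted p = 0.227) and 1.45 (SE 0.48, edgeR adjusted p = 0.278). Tle3, a corepressor, was 112, 81.3 and 84.1 CPM in normal arteries and 117 to 195 CPM in ischemic ones. Furin, the protease that matures the receptor, was 95.9, 126 and 99.4 CPM in normal arteries and 147 to 286 CPM in ischemic ones. In Nrarp, Tle3 and Furin every ischemic library lay above every normal one, which the choice by lowest p favours. Of all genes, 12.8% were higher without overlap at ischemia 1 h and 7.93% at ischemia 4 h. Myc, a target in many tissues, was 28.2, 19.3 and 10.5 CPM in normal arteries, 22.1, 88.7 and 72.9 CPM at ischemia 1 h and 15.6, 23.0 and 38.2 CPM at ischemia 4 h, so that it overlapped. For ischemia 4 h against ischemia 1 h the genes at an unadjusted p under 0.05 were Psenen, a gamma-secretase subunit (log2 fold change 0.48, SE 0.18), and Pdgfrb, a receptor of mural cells (0.92, SE 0.40).

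**Figure D4:**
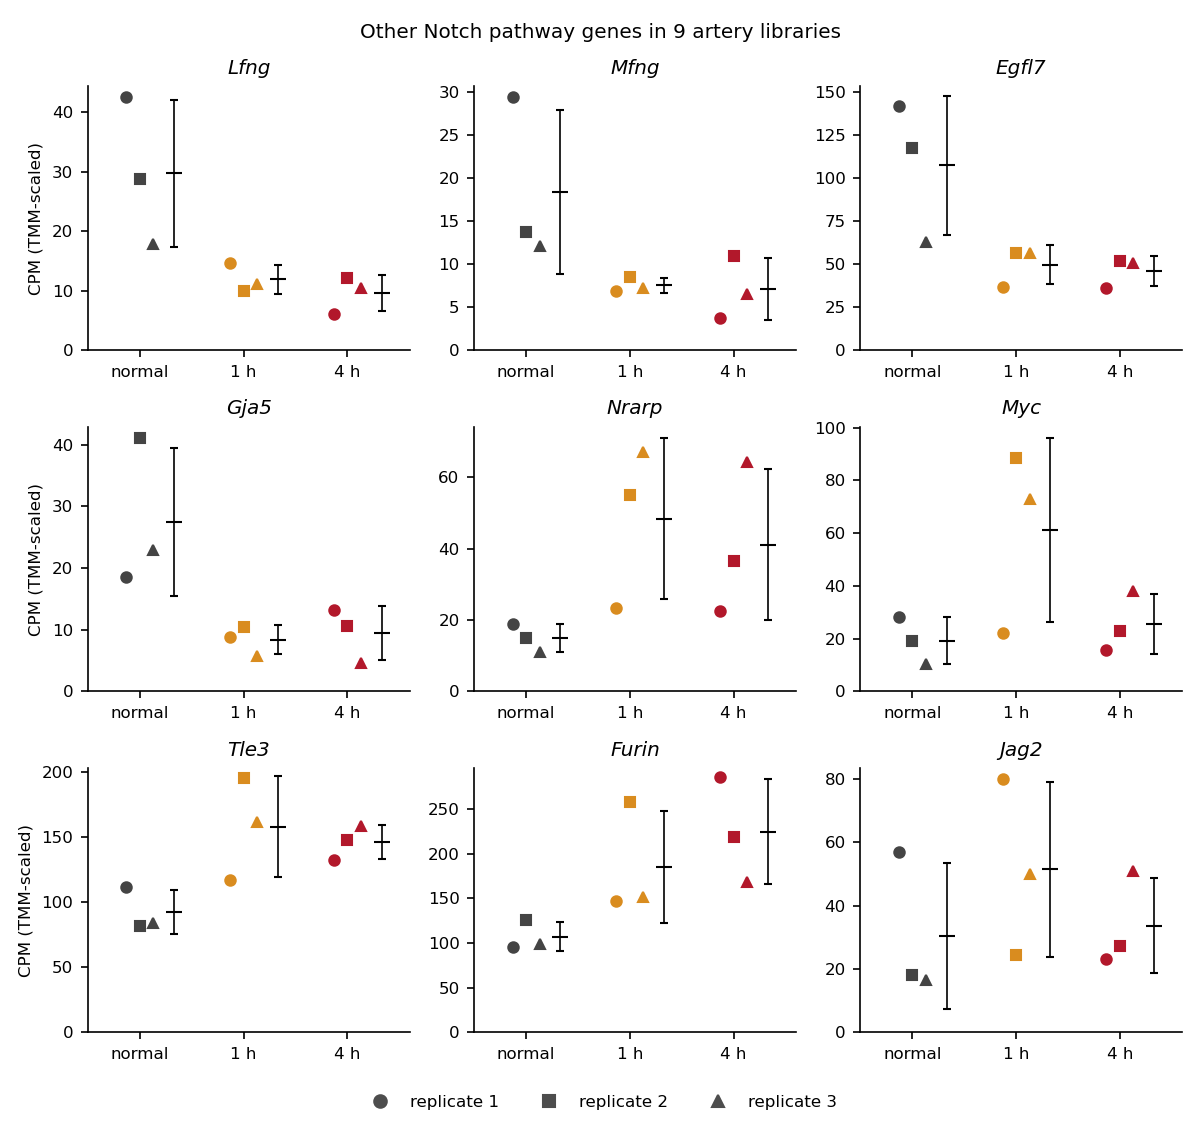
Level in CPM (linear axis from 0) of 9 other Notch pathway genes in each library of the 3 groups, with the mean ± SD beside the points. Lfng, Mfng, Egfl7 and Gja5 lie lower and Nrarp, Tle3 and Furin higher in every ischemic library than in every normal library, while Myc and Jag2 overlap. All but Jag2 were taken by lowest p within a direction.

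Of the remaining ligands and Hes genes, Jag2 was 56.9, 18.0 and 16.4 CPM in normal, 79.7, 24.5 and 50.01 CPM at ischemia 1 h and 23.1, 27.1 and 50.8 CPM at ischemia 4 h, and Dll1 lay between 2.98 and 11.7 CPM in all 9 libraries. Both overlapped between groups. Dlk1 lay between 0.219 and 2.30 CPM and Dlk2 between 0 and 0.870 CPM. Dll3 had at most 7 reads in a library and was not tested. Hes6 lay between 6.02 and 18.6 CPM, Hes2 between 0.222 and 2.21 CPM and Hes7 between 0.870 and 2.58 CPM. Hes5 had at most 5 reads and Hes3 had 0 reads in all 9 libraries. A count of 0 allows a level of up to 0.249 CPM, which is 3 reads in the library of smallest TMM-scaled size. Rbpj itself, the DNA-binding partner of all 4 receptors, had log2 fold changes of 0.17 and 0.35 (SE 0.32 each) against normal.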

How the data were processed

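Counts per gene were deposited by the authors as 1 table of raw read counts, with 37203 symbols and 9 libraries. RNA was extracted with Trizol and made into standard Illumina libraries, and the submitters' processing notes name HISAT2. The counting program, genome build, annotation and strand setting are not given in the sources used here. The study's methods describe microarrays, whereas the table holds whole-number counts. The labels number 3 libraries a group and the methods speak of 3 individuals, so p-values measure the spread between these libraries.

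Genes were filtered with filterByExpr (15482 kept), scaled by TMM (0.814 to 1.22) and tested over all 9 libraries with edgeR 4.0.16 (R 4.3.3, limma 3.58.1) by the quasi-likelihood F-test, with Benjamini-Hochberg adjustment over all genes tested. The SE is the size of the log2 fold change over the square root of F. Genes were called past both an adjusted p of 0.05 and a fold change of 1.5. The common biological coefficient of variation was 51.6%, and libraries held 13114273 to 15504240 counts. No 2 libraries were near-identical. Scripts were tested on simulated data. DESeq2 1.42.0, other scalings, no low-count filter, marker scores as covariates, the groups compared alone, a replicate block and leaving out each library were the alternatives.

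The members, pathway list and cell type markers were chosen with earlier results of these data known. The named genes are the 10 members, other ligands and Hes genes and Nrarp, up to 4 higher and 4 lower pathway genes per comparison by lowest p under 0.05 (1 of these is not reported here), and the 3 most alike genes (at least 5 CPM on average, log2 CPM with a prior count of 2) per member, of which the nearest alone is given for 4 members. Jag1, Heyl and the others not past the threshold are given as values.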

Additional observations from a re-analysis of the deposited data

How the results depend on the processing

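In edgeR 0 members and 0 other pathway genes were called with RLE scaling, library size only, no low-count filter, the compared groups alone, the replicate block, the endothelial score and each of the 9 fits without 1 library. DESeq2 called 1 member at 1 h, 2 at 4 h and 1 over any group, and 6, 4 and 3 other pathway genes, where it called 4.53%, 3.94% and 4.32% of all genes. The smooth muscle score as covariate called 1 member at 4 h (0.439% of all genes) and 1 over any group (0.22%), Jag1 in both, and the nerve score 1 other pathway gene at 4 h (0.782%). The cause was not tested. Library size only moved the median log2 fold change of all genes at 4 h from 0.03 to -0.15. Replicate numbers showed no steady pairing of the samples. Deviations of same-numbered libraries correlated from -0.651 to 0.660, and 7 of 18 nearest libraries in another group bore the same number. Since libraries of a group differ in cell content, this check cannot decide whether the numbers pair samples. The replicate block called 0 members, and 7 and 7 of all genes at 1 h and 4 h against 9 and 14. Some values changed sign. At 4 h against normal, Notch1 was 0.017 with RLE, 0.016 with DESeq2, 0.045 with the replicate block, 0.38 with the endothelial and 0.10 with the smooth muscle score, Hes1 0.11 with the endothelial score, and Notch3 -0.0096 with the endothelial and -0.089 with the smooth muscle score. At 1 h against normal, the nerve score gave Hes1 0.18, Hey2 0.33, Notch2 0.44 and Notch3 0.16, the endothelial score Dll4 0.018 and Notch1 0.13, and the smooth muscle score Notch2 0.013. For 4 h against 1 h, library size only gave Hes1 -0.075 and Notch1 -0.14, the nerve score Hes1 -0.34, Hey1 0.17 and Notch2 -0.12, and the smooth muscle score Hes1 -0.037. Leaving out 1 library turned Notch1 (-0.29 to 0.30), Notch2 (-0.50 to 0.21), Notch4 (-0.57 to 0.13), Dll4 (-0.48 to 0.18) and Hey1 (-1.57 to 0.14) at 1 h, Notch1 (-0.24 to 0.35), Notch3 (-0.076 to 0.46) and Hes1 (-0.44 to 0.11) at 4 h, and Notch1 (-0.047 to 0.22) and Hes1 (-0.18 to 0.63) at 4 h against 1 h. In these fits the members at an unadjusted p under 0.05 numbered 1 to 2 at 1 h (8.04% to 23.5% of all genes) and 2 to 5 at 4 h (9.61% to 12.6%). Of 540 values, 495 kept their direction and side of the threshold. Adjusted p of Jag1 ran from 0.0966 to 0.591 at 1 h and from 0.103 to 0.290 at 4 h in these fits. With 3 libraries a group and this spread, small differences in Hes1, Notch1 and Notch2 were not detectable. Larger differences did not pass in the main edgeR fit either, such as that of Heyl at 4 h against normal (log2 fold change 1.79, edgeR adjusted p = 0.228).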
